A study of Mus musculus with 12 samples.

Results

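Fragments that still carried precursor sequence next to tRNA sequence were examined in small RNA libraries of mouse liver. A nuclear precursor tRNA is transcribed by RNA polymerase III with a 5′ leader, the tRNA body, in some genes an intron, and a 3′ trailer that ends in a run of U. The members were chosen by position alone. They were the distinct sequences listed under a nuclear precursor, with a subtype other than tRF-1, whose first listed row ended beyond the 40 nt leader of the deposited precursor sequence and began before its last 40 nt, the trailer. This rule found 6084 of the 87699 distinct sequences, and these held 17621 of 1705883 reads, or 1.03% of the tRNA reads and 17.2% of the 102530 reads listed only under nuclear precursors. The other nuclear precursor fragments were tRF-1s, which lie in the trailer and end at the terminator (2100 sequences and 57876 reads), other fragments of the trailer alone (3758 sequences and 22634 reads) and fragments of the leader alone (731 sequences and 4399 reads).

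The livers came from male B6D2F1/Crl mice of 8 to 12 weeks, either wild type (WT) or NSun2-/- (NS-KO), a line made by CRISPR/Cas9 deletion in an exon of NSun2. Day 0 (D0) mice received corn oil, D3 mice 1 injection of CCl4, and D27 mice repeated injections, with CCl4 given intraperitoneally at 40% in corn oil and 2 mL per kg to cause liver injury. Each of the 6 groups had 2 libraries of 46937 to 275568 tRNA reads, described in the methods as biological replicates. Before library making, the RNA was treated to remove end groups and methyl groups that block cloning or reverse transcription. Whether the knockout label fits could not be checked here, since the table holds tRNA reads and no NSun2 mRNA, and markers of liver cell types were not measured either. In whole liver, fewer cells of a type and less RNA per cell cannot be told apart.

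Maturation removes these sequences in steps. RNase P cuts the leader from the body, RNase Z (ELAC2) cuts the trailer, the La protein holds the terminal U run, the TSEN complex cuts out introns, and a nucleotidyltransferase then adds CCA to the 3′ end. Histidine tRNA is a special case, because the enzyme THG1L adds a G in front of the body after RNase P has cut. NSUN2 methylates cytosines of tRNAs, mostly where the variable loop meets the T arm, and in leucine tRNA with anticodon CAA also in the anticodon loop, where it works on the precursor with its intron. The comparison of NS-KO with WT livers asked how tRNA fragments differ when this methylation is missing, and the comparison of days asked the same for CCl4 injury.

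The 5 precursors below show where the members lie. They are printed 5′ to 3′ as deposited, with the body in lower case and the leader, trailer and intron in capitals, and the build and positions are those of the RefSeq tRNA gene with the same body (strand not given there). They are shown because the values below turn on them. His-GTG-2-1 (n-THgtg4) lies at chr2:122375494-122375565 of GRCm38, Val-CAC-2-1 (n-TVcac6) at chr1:171111443-171111515, Tyr-GTA-1-4 (n-TYgta7) at chr13:23432990-23433077, Leu-CAA-2-1 (n-TLcaa1) at chr13:21200204-21200308 and Arg-TCT-1-1 (n-TRtct4) at chr11:69123482-69123568. The last 3 have introns of 15, 21 and 14 nt.
His-GTG-2-1: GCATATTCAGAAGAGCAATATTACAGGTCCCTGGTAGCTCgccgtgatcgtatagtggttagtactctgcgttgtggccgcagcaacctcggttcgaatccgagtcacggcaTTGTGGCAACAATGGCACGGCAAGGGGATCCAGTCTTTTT
Val-CAC-2-1: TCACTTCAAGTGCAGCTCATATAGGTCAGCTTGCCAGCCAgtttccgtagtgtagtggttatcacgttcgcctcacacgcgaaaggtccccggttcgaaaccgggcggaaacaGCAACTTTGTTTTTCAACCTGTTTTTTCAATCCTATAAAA
Tyr-GTA-1-4: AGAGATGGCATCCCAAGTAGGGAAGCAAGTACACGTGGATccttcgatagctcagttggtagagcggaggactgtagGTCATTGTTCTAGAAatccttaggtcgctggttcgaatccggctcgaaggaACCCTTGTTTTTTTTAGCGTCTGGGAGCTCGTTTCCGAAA
Leu-CAA-2-1: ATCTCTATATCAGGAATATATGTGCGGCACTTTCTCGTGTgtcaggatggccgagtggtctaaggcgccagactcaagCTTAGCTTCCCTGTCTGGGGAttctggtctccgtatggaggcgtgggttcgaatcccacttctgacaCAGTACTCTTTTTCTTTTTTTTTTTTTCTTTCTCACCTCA
Arg-TCT-1-1: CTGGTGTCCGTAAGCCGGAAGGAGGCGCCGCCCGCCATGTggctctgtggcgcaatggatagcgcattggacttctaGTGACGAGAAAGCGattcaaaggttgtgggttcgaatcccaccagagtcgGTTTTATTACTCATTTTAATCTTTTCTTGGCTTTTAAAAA

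The members themselves are best seen in the few that hold many reads or lead a result below. Capitals again mark bases outside the body, as aligned. The first 2 are the G and T forms of the histidine 5′ fragment, the next 2 carry CCA and further bases at the body's 3′ end, the following 5 are junction reads of a leader or trailer, and the last 2 hold intron bases.
His-GTG, G before the body: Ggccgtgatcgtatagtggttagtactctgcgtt
His-GTG, T before the body: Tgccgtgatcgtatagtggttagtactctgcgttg
Val-CAC, CCA and A: aaccgggcggaaacaCCAA
Ala-TGC, CCA and TT: tccccggcatctccaccaTT
Arg-TCT-1-1, leader: GTggctctgtggcgca
Arg-TCT-3-1, leader: TGggctctgtggcgc
Lys-TTT-1-3, leader: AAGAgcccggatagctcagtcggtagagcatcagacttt
Ser-AGA-2-2, trailer: tgccgactacgTCTAGGATTTCTTTT
Leu-CAA-2-1, trailer: tctgacaCAGTACTCTTT
Tyr-GTA-1-4, exon into intron: aggactgtagGTCA
Ile-TAT-2-3, inside the intron: AGTACATGCAGAGC

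Leader junctions held 2364 sequences and 10753 reads (61.0% of member reads), trailer junctions 3376 sequences and 6405 reads (36.3%), and the interior 344 sequences and 463 reads (2.63%). The members were sparse, since 4857 of them (79.8%) had 1 read over all 12 libraries and the 10 with most reads held 28.2% of the reads. Their first listed rows named 346 of the 439 nuclear precursors, and members listed under a single isodecoder came from 52 isodecoders. The alignment allowed 1 mismatch, and 30.6% of member reads matched a precursor perfectly, against 68.8% of tRF-1 reads and 52.7% of leader-only reads. Among the 8239 member reads with at least 3 nt on each side of a junction, or in the interior, 53.2% matched perfectly.

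The name unprocessed precursor fitted only some of these reads. Altogether 7448 reads (42.3% of member reads) equalled an end of a mature tRNA with a few bases added. Of these, 6248 reads were a mature 5′ end with 1 base before it, and 1200 reads were a mature end with CCA and 1 to 5 further bases. Such reads were listed under precursors because the added bases matched a leader or trailer within the allowed mismatch. They are called mature ends with added bases, and the shares of all tRNA reads and the sums called over days are given with and without them. The shares of reads outside tRF-5c and of nuclear precursor reads were not run without them.

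Histidine tRNA with anticodon GTG held 7127 member reads (40.4%), and 7095 of these were leader junctions. Of the leader-junction reads 6091 (85.8%) had 1 base before the body, and 5152 (72.6%) ended at body nt 30 to 35, in the anticodon arm. Where that 1 base stood before a mature 5′ end (5925 reads), it was G in 3963 reads (66.9%), T in 1570 (26.5%), A in 350 (5.91%) and C in 42. None of the 9 deposited histidine precursors has G at this place, 8 have C and 1 has T, so the reads with G matched no precursor perfectly. A further 6426 reads began exactly at the mature start, so 48% of mature histidine 5′ ends carried the extra base. Among the other isodecoders with at least 500 mature-start reads, the same share was at most 3.41%, in Lys-TTT.

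The extra base differed in kind between genotypes, as a description chosen after its values were seen and not tested as a share. G made up 59.1% and 61.4% of these reads in WT (D0), 49.0% and 59.7% (D3), and 59.3% and 66.9% (D27). In NS-KO it made up 64.6% and 68.9% (D0), 72.0% and 78.4% (D3), and 72.5% and 81.7% (D27). Both NS-KO libraries were above both WT libraries on each day, although the ranges over all days overlapped. T ran the other way and without overlap over all days, at 27.7% to 44.4% (median 32.6%, n = 6) in WT and 13.8% to 25.9% (median 20.4%, n = 6) in NS-KO. The share of mature histidine 5′ ends with any extra base ranged from 44.9% to 53.0% in WT and from 40.9% to 59.2% in NS-KO, and these ranges overlapped.

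At the 3′ end, the 1200 reads with CCA and further bases came mainly from valine tRNA with anticodon CAC (535 reads), alanine tRNA with anticodon TGC (416) and cysteine tRNA with anticodon GCA (128). They made up 80.1%, 87.4% and 71.1% of the trailer-junction reads of these isodecoders. In Val-CAC 90.3% of them ended in a single A after CCA, and none matched its precursor perfectly. The trailer of Val-CAC-2-1 begins GCAAC, so CCA already used the 1 allowed mismatch there. Only tails that continue this trailer could be listed under it, and no perfect match to it was possible. In Ala-TGC the commonest tail was TT (52.6%), and 46.6% of the reads matched a precursor perfectly. The deposited body of Ala-TGC-2-1, the precursor named first for most of these reads, itself ends in CCA and its trailer begins with T, so there a precursor cut in its T run and a mature end with T added cannot be told apart. Over all 1200 reads, 35.8% had tails of T alone. Which isodecoders and tails were listed depended on which trailers resemble CCA and a tail. These counts therefore do not rank mature tRNAs or added bases.

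**Figure D1:**
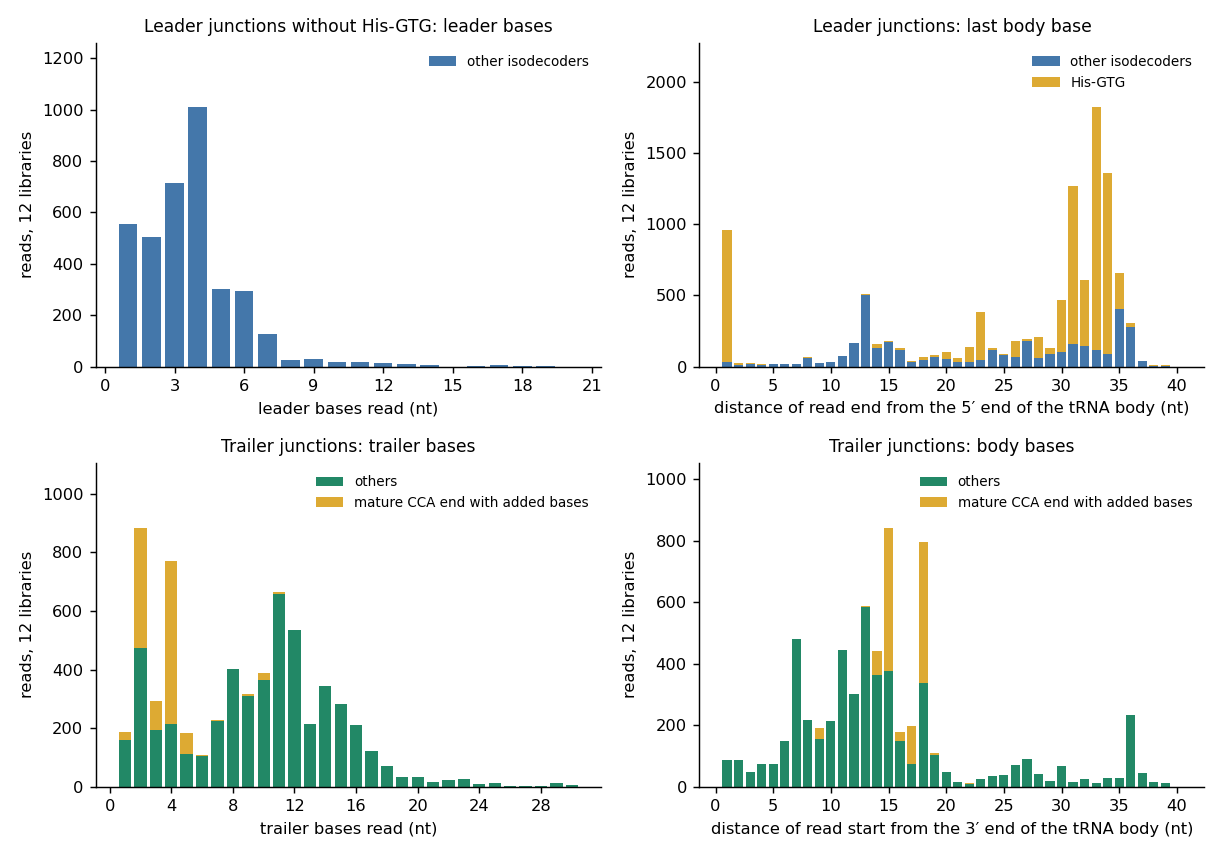
Reads summed over the 12 libraries (vertical axes) by leader bases read, without His-GTG, by the body base at which leader junctions end, and by trailer and body bases read in trailer junctions (horizontal axes, nt), with His-GTG reads and mature CCA ends with added bases in yellow. Leader junctions without His-GTG mostly hold 3 to 6 leader nt (63.4%), those of His-GTG mostly end at body nt 30 to 35 (72.6%), and trailer junctions without CCA mostly hold 7 to 17 trailer nt (70.5%).

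Away from histidine, most junction reads held several bases of leader or trailer. Of the 3658 other leader-junction reads, 63.4% held 3 to 6 leader nt and only 4.10% held more than 7. Their 3′ ends fell in 2 zones, with 29.8% at body nt 12 to 16, where Arg-TCT (300 reads) and Lys-TTT (141) led, and 32.7% at body nt 31 to 36, where Lys-TTT held 688 reads. The plot of reads by leader, body and trailer length shows both zones. Trailer junctions other than mature ends with added bases (5205 reads) held 7 to 17 trailer nt in 70.5% of reads and at most 17 body nt in 74.6%. Among the 4918 of them with at least 2 nt on both sides and a precursor whose trailer holds TTTT, 75.8% ended 1 to 6 nt past the start of the first such run, the site where polymerase III stops, and 19.8% ended before it.

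Introns were read as well. Of the 439 precursors, 25 hold an intron, of 12 to 54 nt, and 463 reads touched one. Tyrosine tRNA with anticodon GTA held 235 of them, from 9 genes, and in 204 reads the 5′ exon ran into the intron. Isoleucine tRNA with anticodon TAT held 91, of which 67 lay inside the intron with no exon base, led by the 14 nt fragment printed above (21 reads). Arginine tRNA with anticodon TCT held 84, of which 33 spanned the whole intron and both exon edges. Leucine tRNA with anticodon CAA, the intron-dependent NSUN2 substrate, held 51, of which 19 ran from the 5′ exon into the intron, 22 from the intron into the 3′ exon, and 3 spanned it. The 2 genes of Ser-AGA with introns held 2 reads.

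The members took a larger share of the tRNA reads in NS-KO than in WT livers. In WT they made up 0.654% and 0.780% of tRNA reads (D0), 1.32% and 0.764% (D3), and 0.861% and 0.675% (D27). In NS-KO they made up 1.78% and 2.16% (D0), 1.22% and 1.65% (D3), and 1.58% and 1.81% (D27). The exact 95% binomial intervals ran from 0.624% to 0.686% for the lowest library and from 2.03% to 2.30% for the highest, and cover counting error only, since reads had no molecular identifiers. Both NS-KO libraries were above both WT libraries at D0 and D27, and overlapped them at D3. The mean was 0.842% ± 0.245 (SD, n = 6) in WT and 1.70% ± 0.310 (SD, n = 6) in NS-KO, a difference over days of 0.858 percentage points (exact permutation test, two-sided, exchanging genotype inside each day, p = 0.0185, adjusted over 5 shares 0.0309). Without mature ends with added bases the means were 0.457% and 1.14%, and the difference was 0.687 points (exact permutation p = 0.0185).

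Each kind of member moved in this direction. Leader junctions rose from 0.493% ± 0.0765 (SD, n = 6) to 0.963% ± 0.10 (SD, n = 6), with NS-KO above WT on all 3 days, and the exact permutation p of 0.00926 is the smallest the 216 arrangements can give. Trailer junctions rose from 0.330% ± 0.169 to 0.681% ± 0.249 (SD, n = 6 each, exact permutation p = 0.0370), but not at D3, where the difference was -0.0401 percentage points. This p was above 0.05 without WT D0 replicate 1 or 2, WT D3 replicate 2, WT D27 replicate 1 or 2, NS-KO D3 replicate 2, or NS-KO D27 replicate 1 or 2, at 0.0556 to 0.102 by the exact permutation test. Interior reads rose from 0.0189% ± 0.00743 to 0.0557% ± 0.0164 (SD, n = 6 each, exact permutation p = 0.0185). Without mature ends with added bases the leader-junction difference was 0.285 points, against 0.470 with them (exact permutation p = 0.0185), and the trailer-junction difference was 0.365, against 0.351 (exact permutation p = 0.0278). A single day has 2 libraries a genotype and cannot give a p below 0.333.

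These shares moved with a different class. The tRF-5c, a long 5′ fragment of mature tRNA, took 35.6% to 71.5% of the reads in WT libraries and 12.5% to 30.4% in NS-KO libraries. Counted over reads outside tRF-5c, members made up 2.16% ± 0.117 (SD, n = 6) in WT and 2.09% ± 0.232 (SD, n = 6) in NS-KO, a difference of -0.0629 percentage points (exact permutation p = 0.417). On this total leader junctions differed by -0.106 (exact permutation p = 0.278), trailer junctions by 0.0226 (exact permutation p = 0.833) and interior reads by 0.0210 (exact permutation p = 0.0556). The WT D3 replicate 1 library, with the lowest tRF-5c share of the WT libraries, was also the WT library with the highest member share. Against the nuclear precursor fragments most like them (tRF-1 and leader-only), members made up 25.2% ± 7.46 (SD, n = 6) in WT and 20.3% ± 3.10 (SD, n = 6) in NS-KO, a difference of -4.97 points (exact permutation p = 0.102). Without WT D3 replicate 1 it was -6.34 points (exact permutation p = 0.0370), and without any other single library p stayed above 0.05. With perfect matches only the difference was 0.721 points (exact permutation p = 0.398). It was -0.923 points with at least 3 nt on each side (exact permutation p = 0.306) and -2.09 points without histidine leader junctions (exact permutation p = 0.139).

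**Figure D2:**
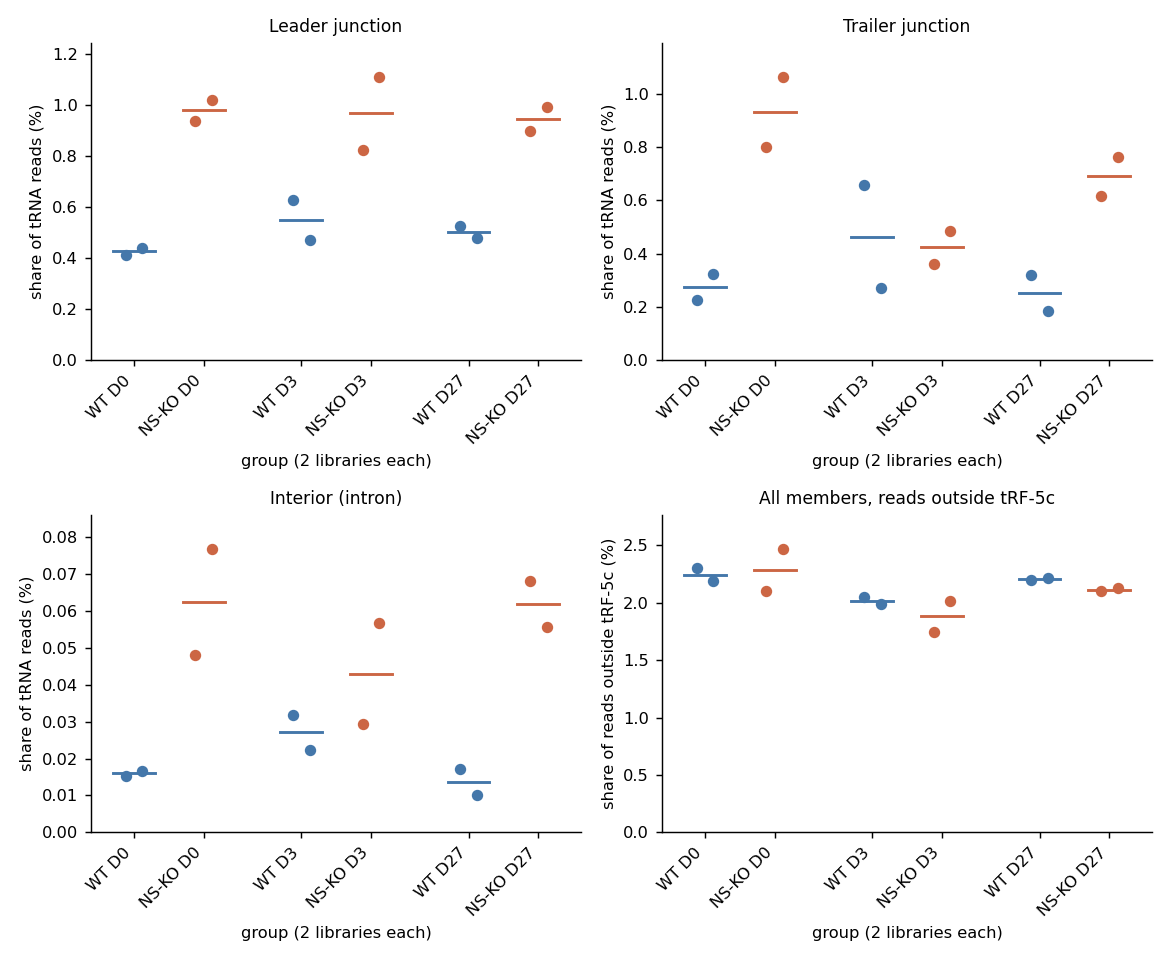
Percent of tRNA reads in leader junctions, trailer junctions and interior members, and percent of reads outside tRF-5c in all members, with 1 point per library by genotype and day and a line at each group mean. NS-KO points stand above WT points at D0 and D27 in the first 3 panels, and in the last panel the 2 genotypes lie close, with means of 2.16% and 2.09%.

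To compare fragments of 1 origin, reads were summed by isodecoder and class, put on a log2 scale of CPM (reads relative to the library total) with trimmed-mean (TMM) scaling factors, and fitted with limma over all 371 sums with enough reads. With this scaling the median of all sums over days was 0.04 on the log2 scale, against 0.92 without it. Of these sums 48 were members, 20 of leader junctions, 24 of trailer junctions and 4 of the interior. Over days, 8 member sums (16.7%) were higher in NS-KO, where 19.7% of all sums were, and 2 (4.17%) were lower, where 17.5% of all sums were, at an adjusted p below 0.05. The median log2 fold change of the member sums was 0.25. With library size alone as the scale, 37 member sums were higher and 0 lower, of which 8 were shared with the 10 above. On that scale 231 of all 371 sums were called in either direction. In both directions the share of members called was below that of all sums, and the called sums are described one by one. Trailer junctions of Lys-CTT and Gly-TCC, leader junctions shared by proline isodecoders and the Arg-TCT interior reached the read minimum only in NS-KO libraries. The filter thus used the group in which these sums are high, and their calls are no separate support for a rise. Without mature ends with added bases 9 member sums were higher and 0 lower, 8 of them among the 10 above. The 10 calls became 6 without WT D0 replicate 1, WT D3 replicate 1 or NS-KO D0 replicate 2, and 5 without NS-KO D3 replicate 2 or NS-KO D27 replicate 2. These p-values set each difference against the spread within groups of only 2 libraries. That spread was pooled over the 6 groups and moderated over all sums.

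Among leader junctions, the reads of arginine tRNA with anticodon TCT rose most clearly. They stood at 122 and 117 scaled CPM in WT (D0), 156 and 123 (D3), and 207 and 146 (D27). In NS-KO they stood at 290 and 318 (D0), 414 and 689 (D3), and 394 and 350 (D27). No NS-KO library overlapped a WT library. The log2 fold change over days was 1.36 ± 0.19 (SE), with a limma adjusted p of 0.000377, and it was called at D0 (1.23) and at D3 (1.83). Of these 413 reads 60.0% matched perfectly, and 17.7% were mature ends with added bases. Most came from Arg-TCT-1-1, with 90 reads in WT and 210 in NS-KO. Arg-TCT-3-1 had 1 read in WT and 64 in NS-KO, and its printed fragment had 12 reads in each NS-KO D3 library.

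The leader junctions shared by 3 proline isodecoders (AGG, CGG and TGG), a sum that entered the test through NS-KO libraries alone, were also higher. They stood at 0 to 23.9 scaled CPM in WT and 12.2 to 58.4 in NS-KO, with a log2 fold change of 0.84 ± 0.29 (SE, limma adjusted p = 0.0420). These ranges overlapped, and the call was lost in 10 of 16 alternatives, with the replicate block (limma adjusted p = 0.0550), a prior count of 0.5 (0.0698), no filter on low counts (0.0832), and without WT D0 replicate 1 or 2, WT D3 replicate 1, WT D27 replicate 2, NS-KO D0 replicate 1, or NS-KO D3 replicate 1 or 2 (0.0579 to 0.105). Lys-TTT, the most abundant leader junction after histidine, did not pass the test (0.28 ± 0.16 SE, limma adjusted p = 0.206), with 442 to 692 scaled CPM in WT and 409 to 1031 in NS-KO.

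His-GTG leader junctions, the largest member sum, did not pass the test, at -0.14 on the log2 scale (limma adjusted p = 0.715). They stood at 6029 and 4724 scaled CPM in WT (D0), 1614 and 5027 (D3), and 4342 and 8538 (D27). In NS-KO they stood at 3373 and 3380 (D0), 5516 and 6989 (D3), and 3312 and 3308 (D27). This value depended on the reads counted. Without mature ends with added bases the histidine log2 fold change was 0.68 (limma adjusted p = 0.00397), and with at least 3 nt on each side it was 1.04. Fragments of the histidine leader alone, which are not members, rose by 1.26 ± 0.15 (SE, limma adjusted p = 0.000192), and a group of 958 member reads held a leader with 1 body base, 928 of them from histidine, with that base mismatched in 93.0%. Mature ends with added bases were 83.5% of the histidine sum and these 928 reads 13.1%. The 928 reads thus made up most of those behind the value of 0.68, while the value of 1.04 leaves them out.

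**Figure D3:**
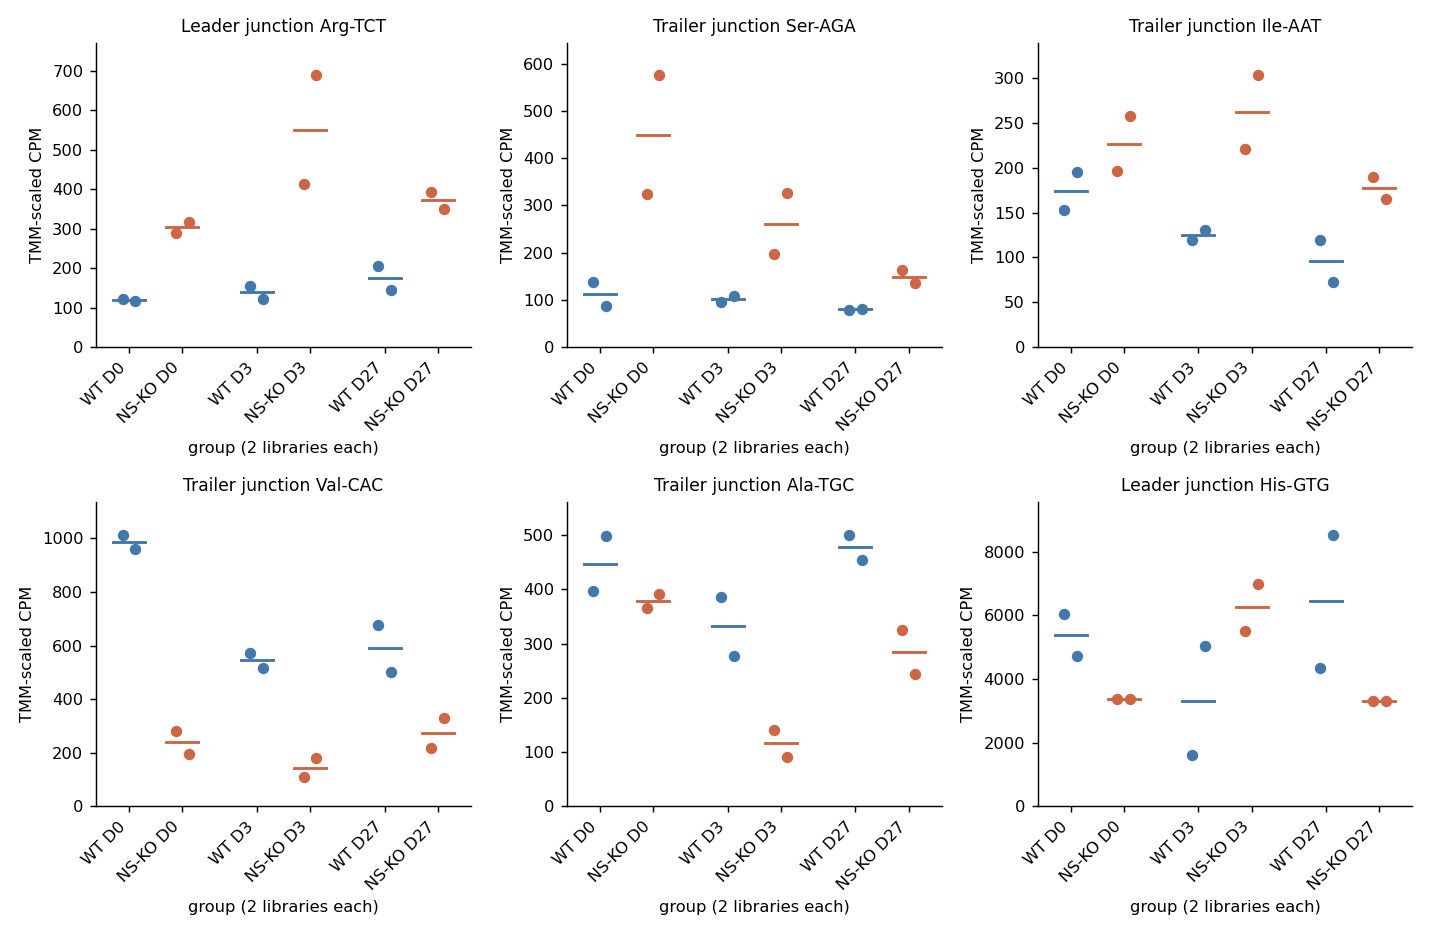
TMM-scaled CPM of 6 member sums in each library, by genotype and day. Arg-TCT leader, Ser-AGA trailer and Ile-AAT trailer sums are higher in NS-KO on each day (Ile-AAT at D0 only by 195.9 against 195.6), Val-CAC and Ala-TGC trailer sums are lower on each day, and His-GTG leader sums overlap over days.

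Trailer junctions gave 5 sums that were higher in NS-KO. Serine tRNA with anticodon AGA stood at 137 and 88.0 scaled CPM in WT (D0), 96.7 and 108 (D3), and 79.5 and 81.0 (D27). In NS-KO it stood at 324 and 576 (D0), 198 and 326 (D3), and 163 and 136 (D27). Both NS-KO libraries were above both WT libraries on each day. The log2 fold change was 1.26 ± 0.22 (SE, limma adjusted p = 0.00142), and it was called at D0 (1.83) and D3 (1.19). In 62.2% of its reads the fragment ended in 3 or more T, and the printed Ser-AGA-2-2 fragment, with 7 reads in WT and 33 in NS-KO, was itself called (1.08 ± 0.25 SE, limma adjusted p = 0.0277). This fragment is part of the same sum and reached the minimum of 20 CPM for single fragments only in NS-KO libraries. Its call is therefore no separate support for a rise.

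Isoleucine tRNA with anticodon AAT had 152 and 196 scaled CPM in WT (D0), 119 and 131 (D3), and 119 and 72.9 (D27). In NS-KO it had 196 and 257 (D0), 221 and 303 (D3), and 190 and 165 (D27). NS-KO was higher on each day, though at D0 only by 195.9 (NS-KO replicate 1) against 195.6 (WT replicate 2). The log2 fold change over days was 0.71 ± 0.20 (SE, limma adjusted p = 0.0156), and at D0 it was 0.35 and not called (limma adjusted p = 0.577). The sum had no leading sequence, since its 259 reads were spread over 192 sequences and the top one had 7. The remaining 3 sums had fewer reads, with log2 fold changes of 1.00 for Lys-CTT, 0.90 for Arg-ACG and 0.96 for Gly-TCC, at limma adjusted p of 0.0370, 0.0400 and 0.0441. Lys-CTT and Gly-TCC entered the test through NS-KO libraries alone. The Lys-CTT call was lost without any of 6 single libraries, among them NS-KO D27 replicate 2 (limma adjusted p = 0.0897), and the Arg-ACG call without any of 5, among them NS-KO D0 replicate 2 (limma adjusted p = 0.110). The Gly-TCC call was lost without any of 6, among them WT D0 replicate 1 (limma adjusted p = 0.128), and with a prior count of 0.5 or no filter on low counts. Lys-CTT separated the genotypes on all 3 days, though at D27 only by 40.7 scaled CPM (NS-KO replicate 1, 3 reads) against 40.5 (WT replicate 2, 5 reads). Gly-TCC had 0 reads in 4 WT libraries and in both NS-KO D27 libraries.

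Val-CAC and Ala-TGC trailer junctions were lower in NS-KO, and these sums were made mostly of mature ends with added bases. Without those ends neither call was kept, at -0.13 for Val-CAC (limma adjusted p = 0.756) and -0.57 for Ala-TGC (limma adjusted p = 0.0841). Val-CAC stood at 1014 and 958 scaled CPM in WT (D0), 573 and 516 (D3), and 676 and 502 (D27). In NS-KO it stood at 281 and 196 (D0), 108 and 182 (D3), and 217 and 331 (D27). The ranges did not overlap, and the log2 fold change was -1.63 ± 0.20 (SE, limma adjusted p = 0.000176), with calls at D0 (-2.0) and D3 (-1.83). The printed fragment with CCA and A had 334 reads in WT and 65 in NS-KO (-2.0 ± 0.33 SE, limma adjusted p = 0.00729).

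Ala-TGC fell less, by 0.78 on the log2 scale (limma adjusted p = 0.00644). Its scaled CPM was 277 to 501 in WT and 90.9 to 392 in NS-KO, so the ranges over days overlapped, with the lowest NS-KO values at D3 (141 and 90.9, against 387 and 277 in WT). The Ala-TGC call was also lost with perfect matches only (-0.52, limma adjusted p = 0.105), with at least 3 nt on each side (-0.15, limma adjusted p = 0.668), and without WT D0 replicate 2, WT D27 replicate 1 or NS-KO D3 replicate 2 (limma adjusted p = 0.0502 to 0.0620), and with library size alone its value was 0.17. The Val-CAC value was 0.58 with perfect matches only (limma adjusted p = 0.321) and -0.68 with library size alone (limma adjusted p = 0.0838), neither past the test. Their reads were also set against mature ends. These were all mature 3′ fragments ending in CCA listed under the isodecoder, also those shared with other isodecoders. The reads with added bases were those listed under that isodecoder alone, so the ratios are not rates for 1 isodecoder. Val-CAC had 12.8 to 26.4 reads with added bases per 100 mature CCA ends in WT libraries and 7.78 to 18 in NS-KO libraries, and Ala-TGC had 5.76 to 9.51 and 5.70 to 13.4. Both pairs of ranges overlapped over days. Within each day, though, both NS-KO libraries had fewer Val-CAC reads with added bases per 100 of these partly shared mature ends than both WT libraries. The values were 13.5 and 7.78 against 25.2 and 18.3 (D0), 10.8 and 8.64 against 16.5 and 12.8 (D3), and 13.3 and 18 against 26.4 and 24.2 (D27). These ratios were formed after the values were seen and were not tested.

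**Figure D4:**
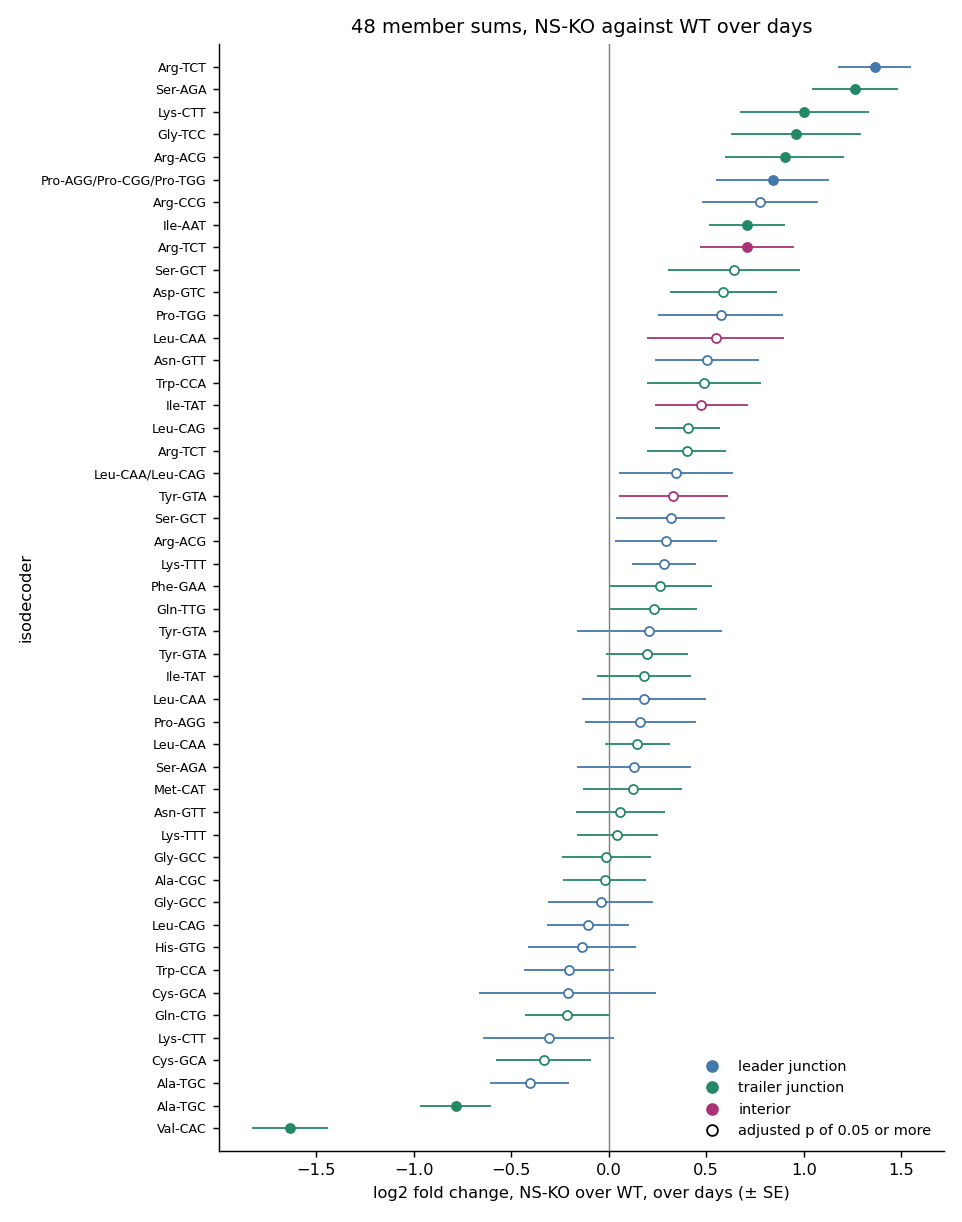
Log2 fold change of NS-KO against WT over days for the 48 member sums, by class, with bars of 1 SE. Filled points passed an adjusted p below 0.05, 8 to the right of 0 and 2 to the left, led by Arg-TCT leader junctions at 1.36 and Val-CAC trailer junctions at -1.63.

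The interior sums, which read introns, gave 1 call. Arg-TCT interior reads, which entered the test through NS-KO libraries alone, rose by 0.71 ± 0.24 (SE, limma adjusted p = 0.0418), with 7.62 to 69.3 scaled CPM in WT and 40.7 to 114 in NS-KO. This call was lost in 9 of 19 alternatives, with a prior count of 0.5, with no filter on low counts, and without WT D0 replicate 1, WT D3 replicate 1, NS-KO D0 replicate 1 or 2, NS-KO D3 replicate 1 or 2, or NS-KO D27 replicate 2 (limma adjusted p = 0.0535 to 0.113). Tyr-GTA ranged from 89.3 to 206 in WT and from 94.1 to 282 in NS-KO, Ile-TAT from 38.5 to 68.6 and from 36.7 to 129, and Leu-CAA from 8.10 to 39.1 and from 8.52 to 81.4. These 3 pairs of ranges overlapped and did not pass the test. Over all 11 member sums of the 4 isodecoders with well-read introns, 2 were higher and 0 lower, both of Arg-TCT, where 19.7% and 17.5% of all sums were, with a median log2 fold change of 0.33 against 0.04 over all sums. Leu-CAA trailer junctions, with 462 to 816 scaled CPM in WT and 428 to 1176 in NS-KO, were not called over days (0.15 ± 0.17 SE, limma adjusted p = 0.521).

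The tRF-1s of the same isodecoders gave other values in the same fit. Their sums were higher in 10 of 17 isodecoders tested and lower in 0, with a median of 0.83. The tRF-1 of Val-CAC had a log2 fold change of 1.61, where its trailer junctions had -1.63, and the tRF-1 of Arg-ACG had 0.04, where its trailer junctions had 0.90. Of the Val-CAC trailer-junction reads, however, 80.1% were mature ends with added bases. Without those ends the Val-CAC trailer sum was not called, and with perfect matches only its value was 0.58. In Ser-AGA the values were 0.83 (limma adjusted p = 0.071) for tRF-1 and 1.26 for trailer junctions, and in Ile-AAT 1.94 and 0.71. The leader-only sums were higher in 2 of 4. Among the member sums of the 9 isodecoders whose tRF-1s the study follows, 3 of 10 were higher and 1 lower, where 19.7% and 17.5% of all sums were, with a median of 0.13 against 0.04 over all sums, and that list was chosen by the study on these samples.

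By day, NS-KO against WT at D0 gave 2 higher member sums, where 2.70% of all sums were higher, and 1 lower, where 8.63% were. At D3 there were 2 higher and 2 lower, where 17.3% and 9.43% of all sums were. Without WT D0 replicate 2 or NS-KO D0 replicate 2 no member sum was called at D0, and without WT D0 replicate 1 only 1 was. Without WT D3 replicate 1 or NS-KO D3 replicate 2 the D3 count was 2. At D27 there were 0, where 1.89% of all sums were higher and 5.39% lower, although 8 member sums and 112 of all sums had an unadjusted limma p under 0.05. Without WT D27 replicate 1 the D27 count was 1. The change from D0 to D3 differed between genotypes in 11.1% of all sums upward and 1.35% downward and in 0 of 48 member sums. At an unadjusted limma p under 0.05 there were 5 member sums and 95 of all sums, and 2 member sums were called without WT D3 replicate 2. The change from D0 to D27 differed in 0 member sums and 0 of all sums, with 2 and 43 at an unadjusted limma p under 0.05.

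Few member sums were called between days, and in WT livers hardly any sum of any class was. In WT livers 0 member sums differed between D3 and D0, where 0.270% of all sums were higher and 0 lower. At an unadjusted limma p under 0.05 there were 6 of 48 members and 37 of all 371 sums. Between D27 and D0 in WT 0 member sums and 0 of all sums differed, with 3 members and 44 of all sums at that level. In NS-KO livers at D3, 2 rose, where 15.6% of all sums did, and 4 fell, where 6.20% did. The 2 that rose were the trailer junctions of Ile-TAT (1.77 ± 0.41 SE) and of glutamine tRNA with anticodon CTG (1.27 ± 0.38 SE). Ile-TAT stood at 51.1 and 110 scaled CPM at D0 and at 235 and 379 at D3, and Gln-CTG at 42.6 and 24.5 against 136 and 75.7. The 4 that fell were the trailer junctions of Ala-TGC (-1.60), Leu-CAG (-1.25) and Leu-CAA (-1.0) and the leader junctions of tryptophan tRNA with anticodon CCA (-1.35). Leu-CAG stood at 443 and 478 at D0 and at 179 and 189 at D3. With library size alone as the scale 0 member sums rose and 5 fell, 4 of the 5 shared with the 6 above, where 78 of all 371 sums were called. These 6 calls became 2 without NS-KO D0 replicate 2 and 3 without NS-KO D3 replicate 1. At D27 in NS-KO 0 member sums differed from D0, where 0.270% of all sums were lower, with 7 members and 56 of all sums at an unadjusted limma p under 0.05.

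Fitted as single fragments with a CPM of at least 20 in 1 library or more, 1114 members were tested among 22065 fragments. This minimum depended on depth. In the shallowest library, of NS-KO at D0, 1 read gave 21.3 CPM, while in the deepest, of WT, 3 reads gave 10.9. Without that shallowest library 624 members were tested, and without the next shallowest, of NS-KO at D27, 778 were. The filter thus favoured fragments read in these NS-KO livers. A value above 0, seen in 995 of the 1114, is therefore no separate support for a rise. Over days 4 were higher, where 3.81% of all fragments were, and 7 were lower, where 2.23% were. The 4 that were higher were the Ser-AGA-2-2 trailer fragment and 3 leader fragments of Arg-TCT, 1 of them from Arg-TCT-1-1 (1 read in WT and 20 in NS-KO) and 2 from Arg-TCT-3-1. All 4 reached the CPM minimum only in NS-KO libraries, and some of the lower Val-CAC fragments only in WT. The 2 from Arg-TCT-3-1 differ only in their last base. They had 12 and 12, and 6 and 6, reads in the NS-KO D3 libraries, and 0 in both NS-KO D0 libraries. The 7 that were lower were 5 fragments of the 3′ end of Val-CAC and 2 histidine fragments with T before the body. The histidine fragment with more reads, printed above, had 379 reads in WT and 55 in NS-KO and a log2 fold change of -2.82 ± 0.43 (SE, limma adjusted p = 0.00585). The G form printed beside it had 669 and 718 reads and did not pass the test (0.46 ± 0.55 SE, limma adjusted p = 0.559). The number of single calls was not stable. With 1 WT library left out it was 3 to 7, without NS-KO D0 replicate 1 it was 393 (383 of them higher), without NS-KO D27 replicate 2 it was 309, and without any other single NS-KO library it was 25 to 46.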

How the data were processed

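Small RNA libraries of 12 mouse livers (6 groups of 2) were sequenced by the authors, who trimmed reads to 14 to 40 nt with cutadapt, checked them with FastQC and aligned them with Bowtie, allowing 1 mismatch, first to mature tRNAs and then, for reads left over, to precursors (tool versions not given in the sources used here). Values in the deposited table are whole read counts per sequence and library, listed under each tRNA that a sequence matched. It was used as other values rather than as a count matrix, because text lines stand in its count columns. All 12 columns of the table were used, and each equalled the deposited alignment file of that library for every sequence.

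Each sequence was counted once. The leader and trailer are the first and last 40 nt of a deposited precursor. The body was matched to the mature tRNA (413 of 439 precursors without an intron, 25 with one, 1 unmatched), and 370 bodies equal a RefSeq tRNA gene of GRCm38. Reads were summed by isodecoder and class, and a sum was tested with at least 10 reads at the median library depth in at least 2 libraries and at least 15 in all. CPM values were scaled with TMM factors (0.448 to 1.79, trims of 30% and 5%) and put on the log2 scale with a prior count of 2. limma 3.58.1 (R 4.3.3) was fitted with a mean per group and a trend, with Benjamini-Hochberg adjustment over all sums or fragments. Shares were compared by exact permutation of genotype within days (Python 3.11.15, numpy 2.4.6). The study's test, edgeR, had been planned as an alternative and was not run, since it needs a table accepted as counts. Scripts were tested on simulated data.

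Named sums were those called over days, the 10 most abundant, those of isodecoders with introns and those called in another comparison, and named sequences the 10 with most reads, the top of each class, and those leading a called or abundant sum. The members and lists were chosen with earlier results of these data known. Alternatives were other scaling, prior count, filters, weights, mismatches, overhang, totals, a replicate block and each library left out, and those without histidine leader junctions or without mature ends with added bases were chosen after the data were seen.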

Additional observations from a re-analysis of the deposited data

Results flagged for a closer look

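The share of members among nuclear precursor reads (members, tRF-1 and leader-only fragments) moved in opposite directions from D0 to D3 in the 2 genotypes. It changed by -8.01 percentage points in WT and by 5.17 percentage points in NS-KO livers, with both D3 libraries of each genotype on that side of both D0 libraries. These shares include mature ends with added bases, and the difference between these changes was not tested.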

How the results depend on the processing

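The shares depended on the total. With reads outside tRF-5c as the total, the differences were -0.0629 (all members), -0.106 (leader), 0.0226 (trailer) and 0.0210 (interior) percentage points. Replicate numbers did not pair the samples (correlations of same-numbered libraries from -0.17 to 0.29 over single fragments and -0.29 to 0.45 over sums, with 1 and 2 of 15 pairs over 0.1). Under the replicate block, with p from 64 sign flips, the same differences of 0.858, 0.351 and 0.0368 for all, trailer and interior members had p = 0.0625, 0.0938 and 0.0625 by the exact test, whose smallest p is 0.0312, and 10 member sums were called over days, 9 of them among the 10 reported, without the proline leader junctions. With 1 library left out, differences ranged from 0.766 to 0.95 (all), 0.422 to 0.518 (leader), 0.286 to 0.415 (trailer), 0.0320 to 0.0416 (interior) and -7.18 to -2.77 (of nuclear precursor reads).

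With library size alone as the scale, member sums called were 37 over days, 25 at D0, 2 at D3, 20 at D27, 5 (all lower) for NS-KO D3 against D0, 1 for NS-KO D27 against D0 and 6 for the interaction at D3, all 6 lower. Over all 371 sums the calls in the same order were 231, 166, 77, 168, 78, 5 and 79. With 1 library left out they ranged from 5 to 10 over days, 0 to 4 at D0, 2 to 5 at D3, 0 to 1 at D27, 2 to 8 for NS-KO D3 against D0 and 0 to 2 for the interaction at D3. Single member fragments called, 11 as reported, were 64 with voom weights, 18 with a CPM of at least 50, 6 with perfect matches only, and 3 to 393 with 1 library left out.

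Leader junctions of Arg-TCT and trailer junctions of Ser-AGA and Ile-AAT passed the test in all 20 alternatives run for each. His-GTG leader junctions reversed to 0.86 with library size alone, 1.04 with at least 3 nt on each side and 0.68 without mature ends with added bases. Ala-TGC trailer junctions reversed to 0.17 with library size alone, and Val-CAC to 0.58 with perfect matches only. Of 192 values of the 25 named sums under other alternatives, 159 kept their direction and side of the threshold, 12 lost and 16 gained the call, and 5 reversed. Of 296 with 1 library left out, the numbers were 258, 34, 4 and 0. In the deepest library 3 reads correspond to 10.9 CPM, and in the shallowest to 63.9 CPM. edgeR was not run.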
